A study of Mus musculus with 4 samples.

Results

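The STAT3 and STAT5 axis with its SOCS brakes and oncostatin was followed in the RNA-seq libraries of PD-1 conditional knockout mice. It was taken as 9 genes chosen by their symbols, Il6ra, Osm, Stat3, Stat5a, Stat5b, Socs1, Socs3, Cish and Pim1, of the 24706 genes in the deposited tables, and all 9 passed the minimum mean of 1 FPKM (reads scaled by gene length and library size) under which 10779 genes were tested. RNA of mouse myeloid cells, by the labels, was sequenced in 4 libraries, 2 of genotype wt and 2 of genotype cko. The wt libraries are described as those of PD-1f/f mice, which carry LoxP sites around an exon of Pdcd1, or as those of wild-type mice, since the accounts of the controls differ. The cko genotype is PD-1f/f; LysM-Cre, where the lysozyme M locus drives Cre, so that deletion is limited to cells with a history of Lyz2 expression. The pups were of postnatal day 2 or 3, and the source is described both as CD11b+ cells sorted from the liver and as whole liver RNA. Whether animals were pooled is not stated, so the p-values measure only the spread between these libraries. Every difference below asks whether the cko libraries differ from the wt libraries.

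Cytokines of the interleukin-6 family, such as oncostatin M, bind a receptor chain of their own together with gp130 (Il6st) and activate Janus kinases, which phosphorylate STAT3. Some colony-stimulating factors, such as GM-CSF, act in the same way through JAK2 on STAT5A and STAT5B, so that both branches are used by granulocytes and monocytes. Phosphorylated STATs enter the nucleus and switch on, among other genes, those of the SOCS family, whose proteins block the receptor or the kinase in a negative feedback loop. Socs3 and Pim1 are classical targets of STAT3 and Cish of STAT5, while Osm is itself a STAT5 target in blood cells. Changes in STAT phosphorylation cannot be read from mRNA.

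The depth was 17691505 to 22212407 counted reads per library. Itgam (CD11b) stood at 48.5 to 54.3 FPKM and Ptprc (CD45) at 58.1 to 75.1 FPKM in the 4 libraries. The floxed gene Pdcd1 stood at 28.5 and 34.7 FPKM in wt and at 17.1 and 21.4 FPKM in cko, a log2 fold change of -0.69 (SE 0.19, adjusted p = 0.218 from limma), so that its transcripts were counted in both cko libraries. The stricter threshold, an adjusted p under 0.05 with |log2FC| of at least 1 (the threshold of the methods), was passed by 0 of the tested genes (0%), with 1768 at an unadjusted p under 0.05 and 2 past the same threshold by voom on recovered reads. At the threshold of the results, |log2FC| above 1 with an unadjusted p under 0.01, 203 genes were higher and 44 lower in cko (2.29% of those tested, 1.88% as higher and 0.408% as lower). After median-of-ratios rescaling these were 144 higher and 66 lower genes. With erythroid and hepatocyte genes removed and each library set to the same FPKM total they were 352 and 17. For any one gene, exact permutation of 2 against 2 libraries reaches a two-sided p of 0.333 at best.

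All 9 genes had a positive log2 fold change in cko, against 60.4% of the tested genes, and their median was 0.83 against 0.09 over all tested genes. In 8 of the 9, all except Stat5a, both cko libraries lay above both wt libraries, which was the case for 33.6% of the tested genes, and in 0 of the 9 both lay below, as for 18% of the tested genes. The margin was small for Pim1, with 23.9 FPKM in wt replicate 2 and 24.0 FPKM in cko replicate 2. It was also small for Stat5b, with 6.67 FPKM in wt replicate 2 and 6.99 FPKM in cko replicate 1. The count of 8 was not repeated after median-of-ratios rescaling, and such margins may not survive it. None of the 9 passed either threshold, and their adjusted p-values from limma ran from 0.189 to 0.666. At an unadjusted p under 0.05 there were 6 of the 9, namely Stat3, Il6ra, Osm, Socs3, Cish and Socs1, where 11.4% of the tested genes were higher in cko at that level. At an unadjusted p under 0.01 there were 3, Stat3, Il6ra and Osm (3.36% of the tested genes were higher in cko at that level), and a log2 fold change above 1 was seen for 3 others, Socs3, Pim1 and Socs1 (3.96% of the tested genes). The 9 genes were listed with results of these libraries known, so the counts describe them and are not independent evidence of a direction.

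**Figure D1:**
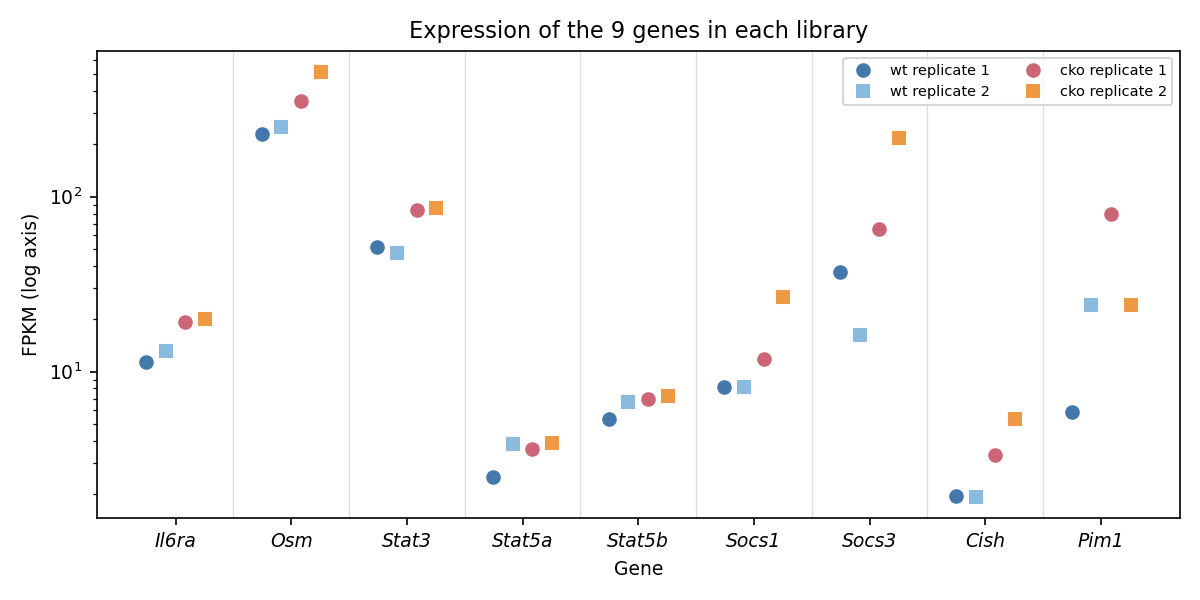
FPKM on a log axis (y) of each of the 9 genes (x) in the 2 wt libraries (blue) and the 2 cko libraries (red and orange), circles for replicate 1 and squares for replicate 2. Osm is the highest gene in each library, Stat3 and Il6ra are tight within groups, and Socs3 and Pim1 spread widely.

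Il6ra encodes the ligand-binding chain of the interleukin-6 receptor and spans positions 89864059 to 89913196 of chromosome 3 (GRCm38). Its level was 11.4 and 13.1 FPKM in wt replicates 1 and 2 and 19.1 and 19.9 FPKM in cko replicates 1 and 2, from 2124 to 3095 reads. The groups did not overlap and each was tight, with a log2 fold change of 0.64 on the log2(FPKM + 1) scale (SE 0.16, adjusted p = 0.214 from limma). Its locus overlaps the antisense gene Gm42809 over 281 bp, which had at most 0.516 FPKM. Osm encodes oncostatin M, a cytokine made by activated myeloid cells, and lies on chromosome 11 from 4236420 to 4241026. It had 228 and 250 FPKM in the wt libraries and 351 and 515 FPKM in the cko libraries, from 10679 to 20711 reads. Both cko libraries were above both wt libraries, cko replicate 2 by more, and the log2 fold change was 0.83 (SE 0.21, adjusted p = 0.214 from limma). Without cko replicate 1 it was 1.11 and passed the threshold of the results, and without cko replicate 2 it was 0.56. Osm was among the most abundant transcripts, at rank 161 and 148 of the 24706 genes in the wt libraries and at rank 107 and 77 in the cko libraries. Of the receptors for these ligands, Osmr, the receptor chain specific to oncostatin M, was at 0.0658 to 0.280 FPKM, far below its ligand, and Il6st, which encodes gp130, was at 2.46 and 2.06 FPKM in wt and 2.45 and 3.66 FPKM in cko. Il6 had 2.63 and 0.0438 FPKM in wt and 0.835 and 6.36 FPKM in cko, so that its spread within each group exceeded any difference between them.

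Stat3 lies on chromosome 11 from 100885098 to 100939540 and encodes the transcription factor downstream of gp130. Its level was 51.7 and 47.8 FPKM in wt and 84.1 and 86.0 FPKM in cko, from 8570 to 15024 reads. The groups were clearly apart and the libraries within each group agreed closely, with a mean of 49.7 ± 2.76 FPKM (SD, n = 2) in wt and of 85.1 ± 1.33 FPKM (SD, n = 2) in cko. The log2 fold change of Stat3 was 0.76 (SE 0.14, 95% interval 0.43 to 1.10), at the smallest p of the 9 genes (unadjusted p = 0.00169, adjusted p = 0.189, limma). It failed the threshold of the results on size alone. Across the 4 fits without one library it stayed between 0.71 and 0.82, the narrowest range among the 9 genes.

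Stat5a and Stat5b encode the paralogous factors downstream of JAK2-coupled receptors, and they lie next to Stat3 on chromosome 11, Stat5b from 100780731 to 100850724 and Stat5a from 100859351 to 100885169. Stat5a had 2.48 and 3.83 FPKM in wt and 3.61 and 3.91 FPKM in cko, from 393 to 514 reads, and its groups overlapped. Stat5b had 5.34 and 6.67 FPKM in wt and 6.99 and 7.24 FPKM in cko, from 657 to 726 reads. The cko libraries of Stat5b were above the wt libraries, yet the counting intervals of the closest pair overlapped (6.18 to 7.18 FPKM in wt replicate 2 and 6.49 to 7.52 FPKM in cko replicate 1, 95% Clopper-Pearson, counting error only). The log2 fold changes were 0.21 for Stat5a (95% interval -0.36 to 0.79) and 0.22 for Stat5b (95% interval -0.23 to 0.67), with adjusted p-values from limma of 0.666 and 0.564. Both intervals include 0, and that of Stat5a also includes the value of Stat3, 0.76. Without wt replicate 1 the value of Stat5a was -0.0225. Stat5b was 1.74 to 2.15 times as high as Stat5a in the 4 libraries, and the ratio of Stat3 to Stat5b was 9.68 and 7.17 in wt and 12.03 and 11.89 in cko. Of the 50-base stretches of the Stat5a transcripts 8.21% also occur in Stat5b, so reads of the pair could be split between them. The annotated ends of Stat5a and Stat3 overlap by 72 bp on opposite strands, and whether reads were counted by strand is not stated.

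Among the other STAT genes Stat6 stood at 74.4 and 86.2 FPKM in wt and 78.0 and 88.8 FPKM in cko, with a log2 fold change of 0.05. Stat4 had 2.19 to 2.39 FPKM in the 4 libraries (0.05 on the log2 scale). Stat2 had 4.82 and 5.31 FPKM in wt and 5.73 and 8.47 FPKM in cko, a log2 fold change of 0.40 (adjusted p = 0.416, limma). Whether these differences are smaller than that of Stat3 was not tested.

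**Figure D2:**
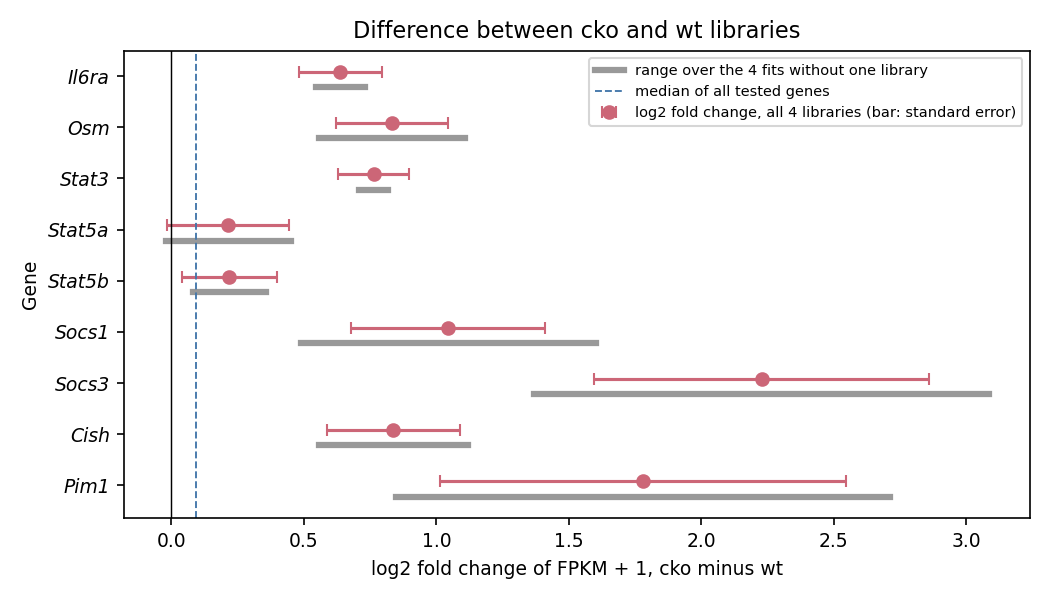
Log2 fold change of FPKM + 1, cko minus wt (x), for the 9 genes (y), red points with standard errors from limma on all 4 libraries, grey bars for the range when any 1 library was omitted, and a dashed line at the median of all tested genes, 0.09. Stat3 has the shortest grey bar, from 0.71 to 0.82, and Pim1 and Socs3 have the longest.

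The SOCS genes encode the feedback inhibitors of the axis: SOCS1 and SOCS3 block Janus kinases, SOCS3 when bound to gp130, and CIS, the product of Cish, binds activated receptors of the STAT5 branch. Socs3 lies on chromosome 11 from 117966079 to 117970047. It had 37.1 and 16.2 FPKM in wt and 65.3 and 216 FPKM in cko, from 884 to 11071 reads. Both cko libraries were above both wt libraries, but the libraries differed 2.28-fold within wt and 3.32-fold within cko. Its log2 fold change was 2.23 (SE 0.63, unadjusted p = 0.0140, adjusted p = 0.228, limma), the highest of the 9 genes, and it missed the threshold of the results on the p-value. Without cko replicate 2 it was 1.37 and without cko replicate 1 it was 3.09, where it passed that threshold. Among other settings it also passed by voom on recovered reads, with erythroid and hepatocyte genes removed and FPKM totals equalised, and with protein-coding genes only.

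Socs1 lies on chromosome 16 from 10783808 to 10785536. It had 8.19 and 8.14 FPKM in wt and 11.9 and 26.8 FPKM in cko, from 187 to 579 reads. The wt libraries were nearly equal and cko replicate 2 was 2.26 times as high as cko replicate 1, with a log2 fold change of 1.04 (SE 0.36, adjusted p = 0.266, limma). Without cko replicate 2 it was 0.49, and without cko replicate 1 it was 1.60 and passed the threshold of the results. Cish lies on chromosome 9 from 107296026 to 107302784 and was the lowest of the 9 genes in 3 of the 4 libraries. It had 1.94 and 1.93 FPKM in wt and 3.32 and 5.38 FPKM in cko, from 233 to 611 reads. Its counting intervals did not overlap between groups, the highest bound in wt being 2.19 FPKM. The log2 fold change of Cish was 0.84 on log2(FPKM + 1) (SE 0.25, adjusted p = 0.236, limma), and since that scale understates the change of low genes, the mean FPKM of the groups, compared as a log2 ratio, differed by 1.17. By voom on recovered reads it was 1.12 and passed the threshold of the results. Without cko replicate 2 Cish stood at 0.56. Cish overlaps the pseudogene Gm17040 on the opposite strand over 1167 bp, and the latter had at most 0.590 FPKM.

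Of the remaining SOCS genes, neither of the 2 that could be tested had its groups apart, where 51.6% of all tested genes had them apart in either direction. Socs2, a STAT5 target in other tissues, had 0.0446 to 0.107 FPKM and Socs5 0.194 to 0.283 FPKM. Socs7 had 0.737 and 0.870 FPKM in wt and 0.896 and 1.04 FPKM in cko, with both cko libraries above both wt libraries. All 3 were below the minimum for a test. Socs4 had 2.22 and 1.59 FPKM in wt and 3.45 and 1.88 FPKM in cko (0.31 on the log2 scale, adjusted p = 0.619, limma), and Socs6 had 5.31 and 5.02 FPKM in wt and 5.08 and 4.50 FPKM in cko (-0.09, adjusted p = 0.816, limma).

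The promoters of the 3 inhibitor genes are shown because Cish and Socs3 hold a different motif from Socs1. Each gene had both cko libraries above both wt libraries, which was the case for 33.6% of the tested genes. Windows of 300 bases, 250 before and 50 after the start of transcription, were taken from RefSeq (GRCm38.p6) for 8 of the 9 genes, 11 windows in all, and Osm had none. They were searched on both strands for TTCNNNGAA, the consensus bound by STAT dimers, which reads the same on either strand, and for GAAA, any 2 bases and GAAA again, the core of the interferon-stimulated response element (ISRE). Matches of the 2 motifs did not overlap in these windows. The printed stretches of Cish and Socs3 lie inside the gene spans given above, since the RefSeq start used is downstream of the start of those spans. Positions of their motifs hold for that RefSeq start only. The sequences run 5′ to 3′ along the gene, with the motif matches in capitals, over the 250 bases before the start and, for Cish, the first 30 bases after it.
Cish promoter, chr9:107296409-107296688, plus strand: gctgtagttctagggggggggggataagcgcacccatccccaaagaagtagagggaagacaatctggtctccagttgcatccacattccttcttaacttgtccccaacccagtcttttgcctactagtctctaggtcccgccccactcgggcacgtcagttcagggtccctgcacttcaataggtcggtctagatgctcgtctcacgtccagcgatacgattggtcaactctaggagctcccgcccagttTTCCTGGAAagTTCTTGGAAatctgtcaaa
Socs3 promoter, chr11:117969367-117969616, minus strand: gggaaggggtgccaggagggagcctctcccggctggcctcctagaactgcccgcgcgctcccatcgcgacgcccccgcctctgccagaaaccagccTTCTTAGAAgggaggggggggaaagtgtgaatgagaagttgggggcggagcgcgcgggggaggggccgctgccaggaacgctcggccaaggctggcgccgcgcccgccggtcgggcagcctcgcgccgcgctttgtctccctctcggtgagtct
Socs1 promoter, chr16:10785537-10785786, minus strand: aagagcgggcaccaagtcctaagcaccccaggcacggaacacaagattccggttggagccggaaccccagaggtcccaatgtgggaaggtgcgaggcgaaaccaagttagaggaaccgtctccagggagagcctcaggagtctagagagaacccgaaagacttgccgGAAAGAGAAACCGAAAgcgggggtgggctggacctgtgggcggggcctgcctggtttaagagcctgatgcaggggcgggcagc
TTCNNNGAA was found in 2 of the 11 windows, those of Cish and Socs3, and in 8.3% of all 32851 promoter windows of the same length. Cish had a tandem pair, starting at positions 1 and 12 counted from the start of transcription, where 0.457% of all windows hold 2 or more matches. Socs3 had a single match at position -154. Socs1 held no TTCNNNGAA and 2 overlapping matches to the ISRE core, at positions -83 and -77, a motif present in 3.44% of all windows. The windows of Il6ra, Stat3, Stat5a, Stat5b and Pim1 held neither of these letter patterns. A match is a description of the sequence and says nothing about binding in these cells.

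Pim1 encodes a serine/threonine kinase that promotes survival and growth and lies on chromosome 17 from 29490812 to 29496111. It had 5.84 and 23.9 FPKM in wt and 79.4 and 24.0 FPKM in cko, from 342 to 3925 reads. The pattern differed from that of the SOCS genes: cko replicate 1 was the high library, wt replicate 1 the low one, and wt replicate 2 and cko replicate 2 were level, at 23.9 FPKM (22.6 to 25.3) and 24.0 FPKM (22.6 to 25.5, 95% Clopper-Pearson, counting error only). Its log2 fold change of 1.78 thus had an SE of 0.77 and a 95% interval from -0.13 to 3.69 (adjusted p = 0.327, limma). Without cko replicate 1 it was 0.94, and without wt replicate 1 it was 0.85. Pim2 and Pim3, the other PIM kinases, had 1.51 and 1.502 FPKM and 4.91 and 4.61 FPKM in wt, and in cko 1.26 and 1.90 FPKM and 4.30 and 10.9 FPKM, with overlapping groups.

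**Figure D3:**
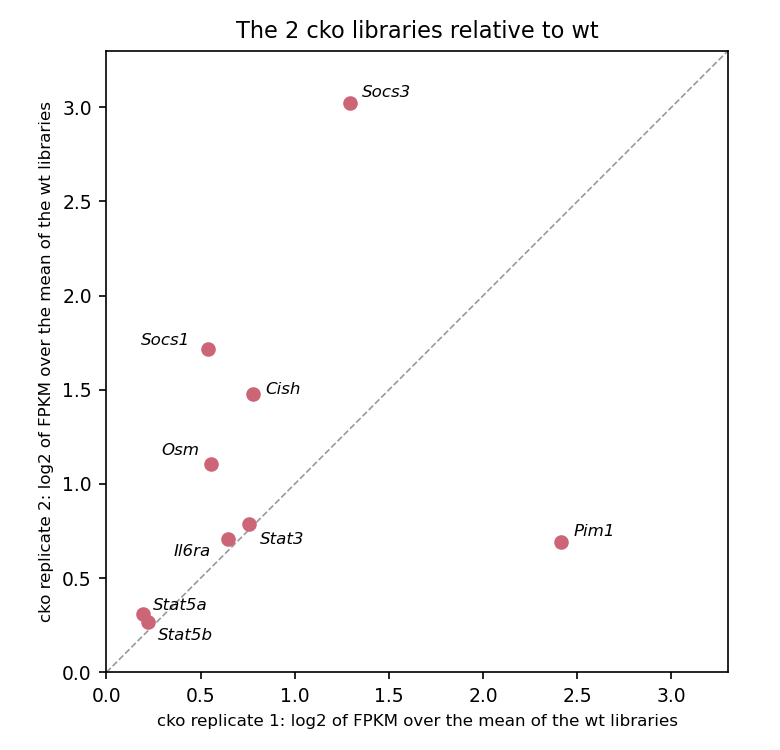
Log2 of FPKM over the mean of the wt libraries in cko replicate 1 (x) and in cko replicate 2 (y) for the 9 genes, with a dashed line where both are equal. Stat3, Il6ra, Stat5a and Stat5b lie close to the line, Osm, Cish, Socs1 and Socs3 above it, and Pim1 far below it.

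The 2 cko libraries differed from each other in a gene-specific way. Relative to the wt mean, Stat3 stood at 1.69 times in cko replicate 1 and 1.73 times in cko replicate 2, and Il6ra at 1.56 and 1.63 times. Osm stood at 1.47 and 2.16 times, Cish at 1.71 and 2.78 times, Socs1 at 1.45 and 3.28 times and Socs3 at 2.45 and 8.12 times, all higher in cko replicate 2. Pim1 stood at 5.33 and 1.61 times, the reverse order. The residual SD within groups on the log2 scale was 0.0577 for Stat3 (percentile 7.33 of the tested genes), 0.0973 for Il6ra (18.4), 0.557 for Socs1 (93.0), 1.03 for Socs3 (98.4) and 1.26 for Pim1 (99.2). The ratio of Socs3 to Stat3 was 0.717 and 0.340 in wt and 0.776 and 2.52 in cko, so that Socs3 exceeded Stat3 in cko replicate 2 only. The order of levels was Osm, then Stat3, in 3 libraries, and Osm, Socs3, Stat3 in cko replicate 2. Stat5b, Stat5a and Cish were the 3 lowest genes in each library, while Socs3, Il6ra and Socs1 followed in that order in both wt libraries and Pim1 moved among them, from below Socs1 in wt replicate 1 to above Socs3 in wt replicate 2.

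Genes with the most similar pattern were sought as those with the smallest Euclidean distance over the 4 libraries, in log2(FPKM + 1) relative to the wt mean. For Socs3 these were Il1b (distance 0.189), Icam1 (0.271) and Ccl3 (0.349), which encode interleukin-1β, an adhesion molecule and a chemokine. Il1b had 98.1 and 43.2 FPKM in wt and 151 and 594 FPKM in cko, with the same order of libraries as Socs3. For Osm they were Pitpna (0.0585), Fam209 (0.0743) and Capn2 (0.0923), for Cish Dmxl2 (0.0270), Pitpna (0.0447) and Gch1 (0.0450), and for Stat3 Rplp2 (0.0375), Gm43462 (0.0407) and Gm44152 (0.0530). With 4 libraries many genes share such a pattern, and the distances are descriptions.

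The other genes of the pathway were taken from lists of ligands, receptors, kinases, STATs, brakes and targets, 79 genes without the 9, of which 52 passed the minimum. Of these, 45 had a positive log2 fold change (60.4% of all tested genes had), 28 had both cko libraries above both wt libraries (33.6% of all) and 2 had both below (18% of all), and the median was 0.34. After median-of-ratios rescaling 38 had a positive log2 fold change. These lists too were chosen with earlier results of these data known, so the counts are descriptions and not independent evidence of a direction. The threshold of the results was passed by 4 as higher in cko (1.88% of all tested genes), Bcl3, Il4ra, Mcl1 and Ptpn1, and by 0 as lower. Bcl3, an atypical IκB protein and STAT3 target, had 2.78 and 2.17 FPKM in wt and 9.89 and 17.9 FPKM in cko (log2 fold change 2.05, SE 0.30, adjusted p = 0.183, limma). Il4ra, the interleukin-4 receptor, had 32.5 and 25.7 FPKM in wt and 74.5 and 116 FPKM in cko (1.65, SE 0.25). Mcl1, a survival factor of neutrophils, had 44.0 and 43.8 FPKM in wt and 75.4 and 120 FPKM in cko (1.10, SE 0.24). Ptpn1, a phosphatase that acts on Janus kinases, had 29.4 and 31.9 FPKM in wt and 55.4 and 72.3 FPKM in cko (1.02, SE 0.18). Bcl3 and Il4ra passed in each fit without one library. Mcl1 and Ptpn1 passed without cko replicate 1, but not without cko replicate 2, wt replicate 1 or wt replicate 2. Nor did they pass after median-of-ratios rescaling, where 2 genes of the lists and 210 of all 10766 tested genes did.

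The 4 Janus kinases all had both cko libraries above both wt libraries, as did 33.6% of all tested genes, and none passed the threshold with all libraries. Jak3 and Csf2rb passed it without wt replicate 1, and with erythroid and hepatocyte genes removed and FPKM totals equalised. Jak3 had 12.8 and 10.2 FPKM in wt and 21.1 and 21.8 FPKM in cko (log2 fold change 0.86, SE 0.17, adjusted p = 0.199, limma). Jak2, the kinase of the STAT5 branch, had 4.46 and 3.90 FPKM in wt and 5.60 and 8.33 FPKM in cko (0.60, SE 0.23). Jak1, the most abundant, had 47.1 and 49.8 FPKM in wt and 58.4 and 64.2 FPKM in cko (0.33), and Tyk2 had 6.52 and 6.77 FPKM in wt and 8.43 and 8.60 FPKM in cko (0.32). Of the receptors that were listed with gp130, Il10ra, a class II cytokine receptor and the interleukin-10 receptor chain that signals through STAT3, had 4.83 and 4.57 FPKM in wt and 7.79 and 18.8 FPKM in cko (1.21, SE 0.38, adjusted p = 0.250, limma). Il10rb had 16.7 and 14.4 FPKM in wt and 18.5 and 18.9 FPKM in cko (0.25), and Lifr had 2.28 and 1.89 FPKM in wt and 3.49 and 3.14 FPKM in cko (0.49). Il11ra1, Il27ra and Osmr were below the minimum. Among the receptors of the STAT5 branch, Csf2rb, the shared chain of the GM-CSF receptor, had 127 and 112 FPKM in wt and 213 and 238 FPKM in cko (0.91, SE 0.15, adjusted p = 0.183, limma), next to its partner chain Csf2ra with 208 and 289 FPKM in wt and 263 and 255 FPKM in cko (0.08).

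**Figure D4:**
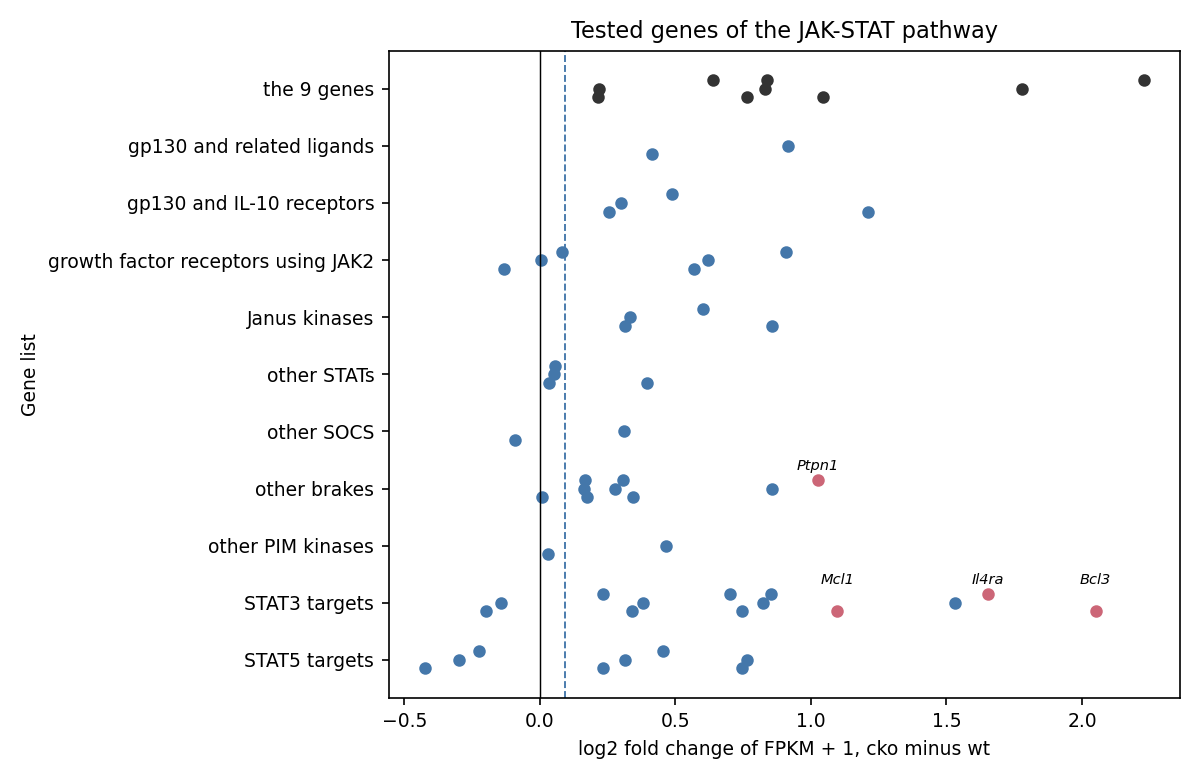
Log2 fold change of FPKM + 1, cko minus wt (x), of the tested genes of the JAK-STAT lists, 1 point per gene and 1 line per list (y), with the 9 genes in black, genes past the threshold of the results in red and the others in blue. The dashed line marks the median of all tested genes, 0.09, and Bcl2l1 and Myc stand in both target lists.

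Markers of cell types differed between the groups as well. Of 13 neutrophil markers, all tested, 8 had both cko libraries below both wt libraries and 3 above, next to 18% and 33.6% of all tested genes, and their summed FPKM ran from 137200 to 161400 in wt and from 92080 to 110800 in cko. Camp and S100a8 passed the threshold as lower. Those above were Prtn3 and Elane, of early granulocytes, and the chemokine receptor gene Cxcr2, with 199 and 179 FPKM in wt and 230 and 317 FPKM in cko. The groups of Mpo overlapped, with 327 and 254 FPKM in wt and 384 and 327 FPKM in cko. Of 9 tested erythroid markers 8 had both cko libraries below both wt libraries, with summed FPKM from 2334 to 3714 in wt and from 1416 to 1515 in cko. Of 7 tested hepatocyte markers 4 lay below, with 85.1 and 144 FPKM in wt and 59.8 and 71.9 FPKM in cko. Monocyte markers summed to 526 and 494 FPKM in wt and 505 and 654 FPKM in cko, and macrophage markers to 412 and 295 FPKM in wt and 303 and 517 FPKM in cko, both with cko replicate 2 the highest library. T cell markers summed to at most 9.37 FPKM, with Cd3e at 0 in 3 libraries and both tested markers lower in both cko libraries, and B cell markers to 52.6 and 66.9 FPKM in wt and 33.6 and 43.2 FPKM in cko. Of 7 tested endothelial and stromal markers 1 lay above and 3 below, among them Stab2, a scavenger receptor of liver sinusoidal endothelium, which had 0.319 and 0.316 FPKM in wt and 3.61 and 4.76 FPKM in cko and passed the threshold of the results as higher (log2 fold change 1.97), and Dcn, a stromal proteoglycan, with 4.41 and 3.72 FPKM in wt and 1.499 and 0.765 FPKM in cko, which passed as lower (-1.27). Of 14 immediate early genes, which respond to stimulation and handling, 9 had both cko libraries above both wt libraries (33.6% of all tested genes) and 1 below, and the median of their log2 fold changes was 0.64. In bulk RNA fewer cells of a type and less RNA per cell cannot be told apart, and the part of these markers in the values of the 9 genes was not tested. In a further setting erythroid and hepatocyte genes were removed and every library was set to the same FPKM total. The totals before were 491983 and 457127 in wt and 412778 and 403900 in cko, so the rescaling itself raised cko values relative to wt. Of these totals the erythroid markers held at most 3714 FPKM and the hepatocyte markers at most 144 FPKM. The median of all tested genes moved from 0.09 to 0.27, with Stat3 at 0.97, Osm at 1.04 and Socs3 at 2.44. The removal was not tested apart from the rescaling.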

How the data were processed

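RNA-seq values of 4 libraries were used, grouped as wt and cko by their labels. The authors deposited FPKM values for 24706 genes, 1 library per file, scaled to the size of each library and without further scaling between libraries. Per the labels the processing used Bowtie2 2.2.3, TopHat2 2.0.12 and HTSeq 0.6.0 and the build mm9, whereas 92.61% of the gene positions in the files were identical to GENCODE M21 (GRCm38), whose coordinates are given. Annotation columns of the files beyond symbol, type and position were not used.

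Gene values were whole multiples of 1 read, in 100% of the 2727 to 3528 values of single-exon genes tested per library (tolerance 0.05 reads), which gave the library totals. Reads were recovered for 99.85% of genes, from annotated lengths or, as for Socs1 and Pim1, from the shortest whole length that made all 4 values whole (a common factor of the reads would be missed), and summed to 99.88% to 99.89% of the totals. At 1 kb 1 read is worth 0.0450 to 0.0565 FPKM. Intervals of 95% cover counting error only.

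Groups were compared with limma 3.58.1 in R 4.3.3 (lmFit, eBayes with a trend, no covariates) on log2(FPKM + 1) for genes whose mean reached 1 FPKM, with Benjamini-Hochberg adjustment over all tested genes. The code of the fit was run on simulated reads with a single dispersion for all genes. That run does not show how the fit performs on genes as variable as Socs3 and Pim1. Alternatives were voom on the recovered reads (genes averaging 10 or more), leaving out each library, blocking on replicate number and median-of-ratios rescaling. Others were rescaling to equal FPKM totals without erythroid and hepatocyte genes, a minimum of 5 FPKM or none, pseudocounts of 0.1 and 0.01, and an eBayes fit with no trend. Protein-coding genes only, the log2 ratio of mean FPKM and a crossed pairing were chosen after seeing the data. The genes and lists were chosen with earlier results of these data known. Genes named are the 9, genes of the receptor, kinase, STAT and SOCS lists, list genes past a threshold, nearest patterns, and examples of marker lists, and 1 gene of these lists is not reported here by name. Tables and figures were made with Python 3.11.15 and matplotlib 3.10.9.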

Additional observations from a re-analysis of the deposited data

How the results depend on the processing

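Of 124 alternative values with a test for the 9 genes, 115 kept their direction and their side of the threshold of the results, |log2FC| above 1 with an unadjusted p under 0.01. The crossed pairing, in which Pim1 and Socs3 passed that threshold, is not among the 124 values and is given below. Stat5a turned to -0.0225 without wt replicate 1. The threshold, which none of the 9 passed in the main fit with all libraries, was passed without cko replicate 1 by Osm (1.11), Socs1 (1.60) and Socs3 (3.09). With erythroid and hepatocyte genes removed and FPKM totals equalised it was passed by Osm (1.04) and Socs3 (2.44). By voom it was passed by Socs3 (2.25) and Cish (1.12), and with protein-coding genes only by Socs3 (2.23). As the log2 ratio of mean FPKM, a value with no test, Cish moved to 1.17. The causes were not tested. Over the 4 fits without one library the log2 fold changes ranged from 0.71 to 0.82 for Stat3, 0.55 to 0.73 for Il6ra, 0.56 to 1.11 for Osm, 0.49 to 1.60 for Socs1, 1.37 to 3.09 for Socs3, 0.56 to 1.12 for Cish, 0.85 to 2.71 for Pim1, -0.0225 to 0.45 for Stat5a and 0.08 to 0.36 for Stat5b. Neither Stat5a nor Cish had a value at a minimum of 5 FPKM.

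Over all genes the threshold of the results was passed by 247, by 126 among the smaller set left by a minimum of 5 FPKM, and by 136 to 472 without one library (151 without wt replicate 1, 136 without cko replicate 2, 472 without cko replicate 1). The threshold of the methods was passed by 0 genes, by 2 with voom, and by 0 in each fit without one library. Blocking on replicate number gave 258 genes past the threshold of the results, and the block changed no call among the 9 genes. The labels do not say that the numbers pair the libraries, and the differences between replicates correlated at -0.16 between groups across genes. Under the crossed pairing 363 genes passed the threshold of the results and 1 that of the methods, and 2 of the 9 genes, Pim1 and Socs3, passed the former. Depth limits the lowest genes, since Socs2 had 8 to 18 reads per library.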
